A study of Arabidopsis thaliana with 9 samples.

Results

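The subject here is 29 loci: probe sets with a single gene whose locus belongs to the pseudogene class of the annotation, a class in which transposable element genes are also placed, and whose mean MAS5 signal, a linear summary of the brightness of the probes in a set, was 30 or more in at least 1 of 3 groups. They were 29 of 922 such probe sets (3.15%), and the other 893 stayed under 30 in all groups. Among 12443 probe sets for protein-coding genes, 53.8% reached this floor. AT4G16870 was left out, and no probe set of the class lay between AT5G39250 and AT5G40190. The members were chosen by their signals in the same groups that are compared here, so their levels are a description, and a locus that passed only through a mutant group had to be higher there.

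Pseudogenes are copies of genes that no longer encode a working protein, and transposable elements are sequences that can move or copy themselves within a genome. Plants keep most such loci silent through DNA methylation, histone modification and small RNAs. HDA6 is a histone deacetylase: it removes acetyl groups from histones, and in Arabidopsis it is known to take part in the silencing of transposons and repeats. The annotation used here names each member only by its locus identifier, so no element family or function is given to any of them.

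The plants were Arabidopsis thaliana of strain Col-0, kept for 35 days under constant light at 21 ºC on MS (Murashige and Skoog) medium in plates. RNA of whole plants was measured on 9 single-colour ATH1 arrays, 3 for each group. The reference group was a double transformant with source name Columbia, whose labels name no HDA6 mutation and do not say what it carries. Both other groups carry an EMS-induced mutation in HDA6 and have the source name rts1-1; the titles call one a null mutant and the other an amino acid substitution. At night, the plants of double transformant 1 were at 35% humidity and those of all other arrays at 53%. Apart from this humidity, nothing in the labels says that replicate arrays hold separately grown plants. The p-values given here therefore rest on differences between arrays that, within a group at 53% humidity, could be technical only. A pair of arrays resembled the rest least by mean correlation, double transformant 3 (0.946) and null mutant 3 (0.944), against 0.954 to 0.967 for the others. In addition, 1 array in each group has a title ending in rpt, which the labels do not explain. Array medians ran from 31.8 to 36.8, and with 3 arrays a group the precision is limited. HDA6 itself had no probe set with a single gene here and was not analysed.

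Of the 29 members, 19 were read by probe sets with the plain suffix and 10 by sets whose suffix marks probes shared between related sequences (7 ending in x_at and 3 in s_at). A signal of a shared set may not belong to its locus alone. The members just above the floor were AT3G60170 (highest group mean 30.6), AT5G34920 (30.7) and AT1G35770 (31.0), and the loci just below it were AT2G12300 (29.3), AT5G34900 (28.2) and AT1G64270 (28.1). Only 8 members reached 30 in the double transformant, all plain. The remaining 21 passed through a mutant group alone: 11 through both, 4 through the null mutant and 6 through the substitution mutant.

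**Figure D1:**
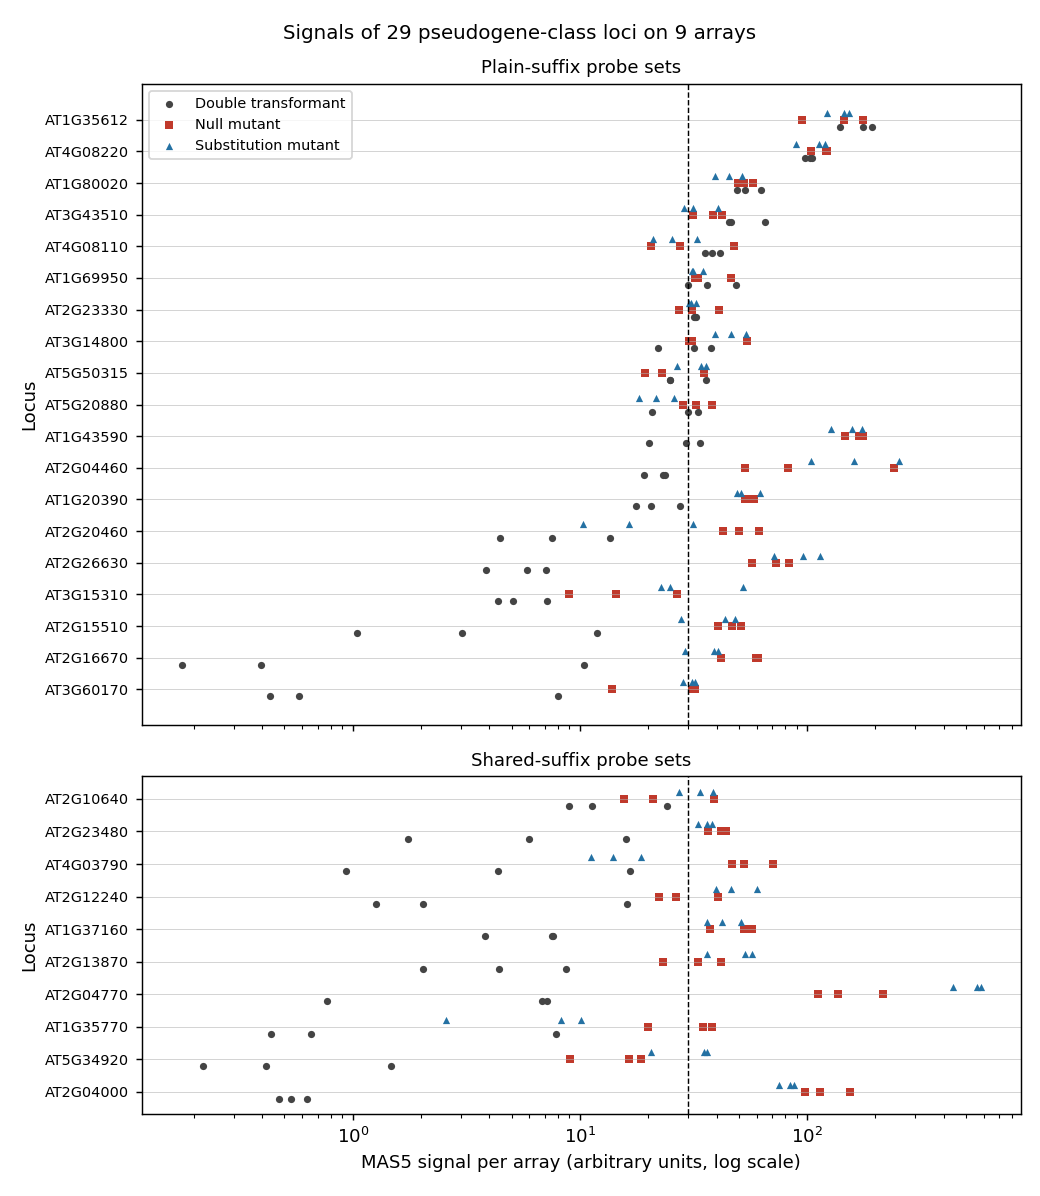
Signal of each of 29 pseudogene-class loci (rows) on 9 arrays (horizontal log axis, arbitrary MAS5 units), with plain-suffix sets above and shared-suffix sets below; each point is 1 array, and the dashed line is the floor of 30. The 8 loci at 30 or more in the double transformant overlap between groups in most cases, while for AT2G04000 the double transformant arrays lie between 0.473 and 0.626 and all mutant arrays at 75.3 or more.

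The 8 loci that were already at 30 or more in the double transformant showed no call in any comparison (a call being a limma Benjamini-Hochberg adjusted p under 0.05 over all 22746 probe sets tested), and 1 of them, AT3G43510, had an unadjusted p under 0.05. AT4G08220 gave signals of 103, 105 and 97.6 in the double transformant, 104, 122 and 121 for the null mutant and 89.8, 113 and 119 for the substitution mutant. These arrays overlap, and the differences from the double transformant, on the scale of log2(signal + 4.03) used throughout, were 0.18 ± 0.14 (SE, limma adjusted p = 0.705) and 0.07 ± 0.14 (adjusted p = 0.918). AT1G35612 was at 169 ± 27.3 (SD, n = 3) in the double transformant, 139 ± 41.1 for the null mutant and 140.3 ± 16.1 for the substitution mutant. AT1G80020 was at 55.0 ± 6.85, 53.4 ± 4.08 and 45.5 ± 6.33. In both loci the arrays of the groups overlapped. AT2G23330 was at 32.1 ± 0.273, 33.1 ± 7.08 and 31.2 ± 1.28, with log2 differences of 0.02 ± 0.23 and -0.04 ± 0.23. AT1G69950 was at 38.3 ± 9.42, 37.2 ± 8.02 and 32.5 ± 2.04. AT3G14800 was at 30.6 ± 7.91, 38.7 ± 13.7 and 46.4 ± 7.14, and its substitution arrays (39.3, 53.6 and 46.2) all lay above those of the double transformant (31.9, 22.1 and 37.8), with a log2 difference of 0.56 ± 0.28 (limma adjusted p = 0.465).

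Means were lower in both mutants for 5 of these 8 loci, AT1G35612, AT1G80020, AT1G69950, AT3G43510 and AT4G08110, and none of these differences passed the test. The 8 loci were set apart by their double transformant mean, which favours high reference signals, so this count is a description only. AT3G43510 gave 45.4, 46.1 and 65.0 in the double transformant, 38.7, 42.1 and 31.5 for the null mutant and 31.4, 40.6 and 28.6 for the substitution mutant. All 6 mutant arrays lay below all 3 of the reference, yet the log2 differences of -0.43 ± 0.23 and -0.58 ± 0.23 had limma adjusted p of 0.533 and 0.343. AT4G08110 was at 38.4 ± 2.89, 31.9 ± 14.1 and 26.5 ± 5.95 (SD, n = 3), with only the substitution arrays apart from the reference. Over the 8 loci the log2 differences ran from -0.43 to 0.28 for the null mutant and from -0.58 to 0.56 for the substitution mutant.

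Among plain-suffix loci under 30 in the double transformant, 6 reached the floor in both mutants. AT1G43590 gave 33.9, 29.3 and 20.1 in the double transformant, 147, 169 and 175 for the null mutant and 127, 174 and 157 for the substitution mutant. Every mutant array was above every reference array, and the rises of 2.42 ± 0.19 and 2.31 ± 0.19 were called (limma adjusted p = 6.2e-05 and 8.84e-05). AT2G26630 gave 3.87, 7.12 and 5.86, then 73.3, 82.9 and 57.1, then 71.2, 115 and 96.1. It rose by 2.96 ± 0.25 (limma adjusted p = 0.000124) in the null mutant, and the substitution mutant rose by 3.33 ± 0.25 (adjusted p = 4.72e-05), again without overlap. In bulk RNA, more cells with a transcript and more of it per cell cannot be told apart.

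AT1G20390 showed a smaller step with little spread: 20.5, 17.7 and 27.7 in the double transformant, 58.5, 53.2 and 55.1 for the null mutant and 51.4, 62.0 and 48.9 for the substitution mutant. Both mutant groups lay apart from the reference, with rises of 1.22 ± 0.21 and 1.17 ± 0.21 (limma adjusted p = 0.023 and 0.0314). AT2G16670 gave 0.395, 0.177 and 10.5, then 41.7, 60.5 and 59.8, then 28.9, 39.0 and 40.6. Its rises were 3.15 ± 0.44 and 2.62 ± 0.44 (limma adjusted p = 0.00669 and 0.0232). Double transformant 3 was the only reference array above 1 for this locus. AT2G15510 went from 5.31 ± 5.76 (SD, n = 3) to 46.1 ± 5.23 and 39.8 ± 10.6, with rises of 2.59 ± 0.40 and 2.37 ± 0.40 (limma adjusted p = 0.0124 and 0.0232).

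AT2G04460 had the widest spread of all members, with a pooled within-group SD of 0.73 on the log2 scale. Its signals were 23.7, 23.3 and 19.1 in the double transformant, 53.5, 242 and 82.3 for the null mutant and 160.2, 104 and 254 for the substitution mutant. All mutant arrays exceeded all reference arrays, but null mutant 2 was far above the other null arrays. The rise of 2.68 ± 0.45 in the substitution mutant was called (limma adjusted p = 0.0232), and the null mutant differed by 2.04 ± 0.45 (adjusted p = 0.0733). Without null mutant 1 the null comparison was called as well.

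A further 5 loci, with the shared suffix, also reached the floor in both mutants and not in the double transformant. AT2G04000 gave 0.536, 0.473 and 0.626 in the double transformant, 114, 98.2 and 155 for the null mutant and 83.9, 87.3 and 75.3 for the substitution mutant. The reference signals are at the bottom of the scale and the mutant arrays do not overlap them. Its rises were 4.76 ± 0.23 and 4.23 ± 0.23 (limma adjusted p = 9.04e-07 and 2.53e-06). Against such dim reference signals the size moved with the offset: the differences were 5.58 and 5.04 with 0.5 times 4.03, and 3.04 and 2.56 with 4 times it, all called. AT2G04770 gave 0.768, 6.82 and 7.19, then 136, 112 and 215, then 561, 581 and 437. The 3 groups formed separate ranges, with the substitution arrays highest, and the rises were 4.19 ± 0.32 and 5.98 ± 0.32 (limma adjusted p = 5.8e-05 and 2.06e-06).

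AT1G37160 was at 6.32 ± 2.17 (SD, n = 3) in the double transformant, 49.1 ± 10.5 for the null mutant and 43.3 ± 7.40 for the substitution mutant, with rises of 2.36 ± 0.29 and 2.20 ± 0.29 (limma adjusted p = 0.00258 and 0.00459). AT2G13870 went from 5.05 ± 3.38 to 32.7 ± 9.26 and 49.1 ± 11.3, with rises of 2.05 ± 0.35 and 2.59 ± 0.35 (adjusted p = 0.0198 and 0.00561). Arrays of both loci lay apart from the reference in both mutants. AT2G23480 gave 1.75, 5.95 and 15.9 in the double transformant against 44.2, 36.6 and 41.6 for the null mutant and 38.0, 36.3 and 33.3 for the substitution mutant. Despite this separation it was called in the null mutant only (2.09 ± 0.39, limma adjusted p = 0.0333; 1.93 ± 0.39, adjusted p = 0.052 in the substitution mutant), and the mutants differed by 0.17 ± 0.39 (adjusted p = 0.963).

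Another 4 loci reached the floor in the null mutant alone, a split that by itself sets their null mean above their substitution mean. AT4G03790, a shared set, gave 0.935, 4.35 and 16.6 in the double transformant, 70.5, 46.7 and 52.5 for the null mutant and 18.6, 14.0 and 11.2 for the substitution mutant. Null arrays lay above all others, while the reference and substitution arrays overlapped. The null mutant rose by 2.65 ± 0.46 (limma adjusted p = 0.0222), and the substitution mutant differed by 0.95 ± 0.46 (adjusted p = 0.456). AT1G35770, also a shared set, gave 0.436, 0.652 and 7.87, then 38.1, 34.9 and 19.8, then 2.57, 10.1 and 8.29, with a rise of 2.43 ± 0.47 in the null mutant (adjusted p = 0.0385) and a difference of 0.74 ± 0.47 (adjusted p = 0.602) in the other. The plain locus AT2G20460 gave 7.57, 4.45 and 13.5, then 42.7, 49.99 and 61.5, then 10.3, 31.5 and 16.5. It rose by 2.19 ± 0.39 in the null mutant (limma adjusted p = 0.0254) and differed by 0.87 ± 0.39 (adjusted p = 0.414) in the substitution mutant. In all 3 loci the null arrays lay above the substitution arrays, by 1.70 ± 0.46, 1.70 ± 0.47 and 1.33 ± 0.39, and these differences between the mutants had limma adjusted p of 0.535, 0.562 and 0.616. Arrays of AT5G20880 overlapped the reference in both mutants (27.98 ± 6.43, 33.0 ± 5.02 and 21.99 ± 3.85, SD, n = 3), and its null arrays lay above its substitution arrays by 0.51 ± 0.26 (adjusted p = 0.822).

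The last 6 loci reached the floor in the substitution mutant alone, which in the same way sets their substitution mean above their null mean. The shared set of AT5G34920 gave 0.416, 0.22 and 1.47 in the double transformant, 18.6, 9.02 and 16.4 for the null mutant and 20.5, 36.3 and 35.2 for the substitution mutant. The 3 ranges were separate in that order, and both rises were called (1.95 ± 0.36, limma adjusted p = 0.0294, and 2.85 ± 0.36, adjusted p = 0.00396). With 4 times the offset the null difference was 0.86 and no longer called (limma adjusted p = 0.0916), and the substitution difference was 1.46 (adjusted p = 0.00843). AT2G12240, a shared set, gave 2.03, 1.27 and 16.04, then 26.5, 22.3 and 40.5, then 59.99, 46.1 and 39.9; the substitution mutant rose by 2.59 ± 0.47 (adjusted p = 0.0303), and the null mutant differed by 1.93 ± 0.47 (adjusted p = 0.107). The plain locus AT3G60170 gave 0.434, 0.579 and 8.04, then 31.1, 32.1 and 13.9, then 32.1, 28.3 and 31.3. Its rise of 2.46 ± 0.44 in the substitution mutant was called (limma adjusted p = 0.0289), and the null difference of 2.17 ± 0.44 fell just outside (adjusted p = 0.0503).

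The other 3 of these loci were not called. AT3G15310 gave 7.15, 5.10 and 4.37 in the double transformant, 8.96, 14.5 and 26.8 for the null mutant and 52.0, 24.98 and 22.7 for the substitution mutant, so that both mutants lay above the reference (1.04 ± 0.41 and 1.89 ± 0.41, limma adjusted p = 0.362 and 0.067). AT2G10640 was at 14.8 ± 8.22, 25.1 ± 12.2 and 33.2 ± 5.64 (SD, n = 3), with differences of 0.63 ± 0.38 and 1.05 ± 0.38. AT5G50315 was at 28.5 ± 6.36, 25.9 ± 8.41 and 32.2 ± 4.84, with overlapping arrays.

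Counted over the members, 14 of 29 were called higher and 0 lower in the null mutant, where 0.659% of all 22746 probe sets were called higher and 0.101% lower. In the substitution mutant 13 were called higher and 0 lower, against 0.62% and 0.127% of all probe sets. Counted by an unadjusted p under 0.05, the members numbered 18 higher and 0 lower (null mutant), and 17 higher and 1 lower, AT3G43510 (substitution mutant), where 11.1% and 11.8% of all probe sets had such a p in either direction. The members' counts cannot be read against these shares, since 21 of the members were let in by a mutant signal of 30 or more. Of the called loci, 10 were called in both mutants, 4 in the null mutant only and 3 in the substitution mutant only, and both comparisons share the double transformant arrays. All 17 were among the 21 under 30 in the double transformant. By suffix, 6 of 19 plain and 8 of 10 shared loci were called in the null mutant, and 7 and 6 in the substitution mutant. The 19 plain loci include all 8 at 30 or more in the double transformant, whereas all 10 shared loci were let in by a mutant signal. Among loci under 30 in the double transformant, these calls were 6 of 11 plain and 8 of 10 shared (null mutant), and 7 and 6 (substitution mutant). Ranges of arrays were separate for 18 members that were higher and 1 that was lower in the null mutant (8.19% and 5.49% of all probe sets), and for 17 and 2 in the substitution mutant (10.6% and 8.6%). The median log2 difference was -0.03 and -0.22 over the 8 members at 30 or more in the double transformant, 2.17 and 2.31 over the 21 let in by a mutant signal, and 0.019 and -0.0031 over all probe sets. Both sets of members were formed by the signals that are compared, so their medians are a description only. The size of these differences depended on the offset: with 4 times 4.03 in its place, 10 of the 14 called differences in the null mutant and 8 of the 13 in the substitution mutant shrank by over 1.5 times on the log2 scale, and 1 of these calls was lost.

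**Figure D2:**
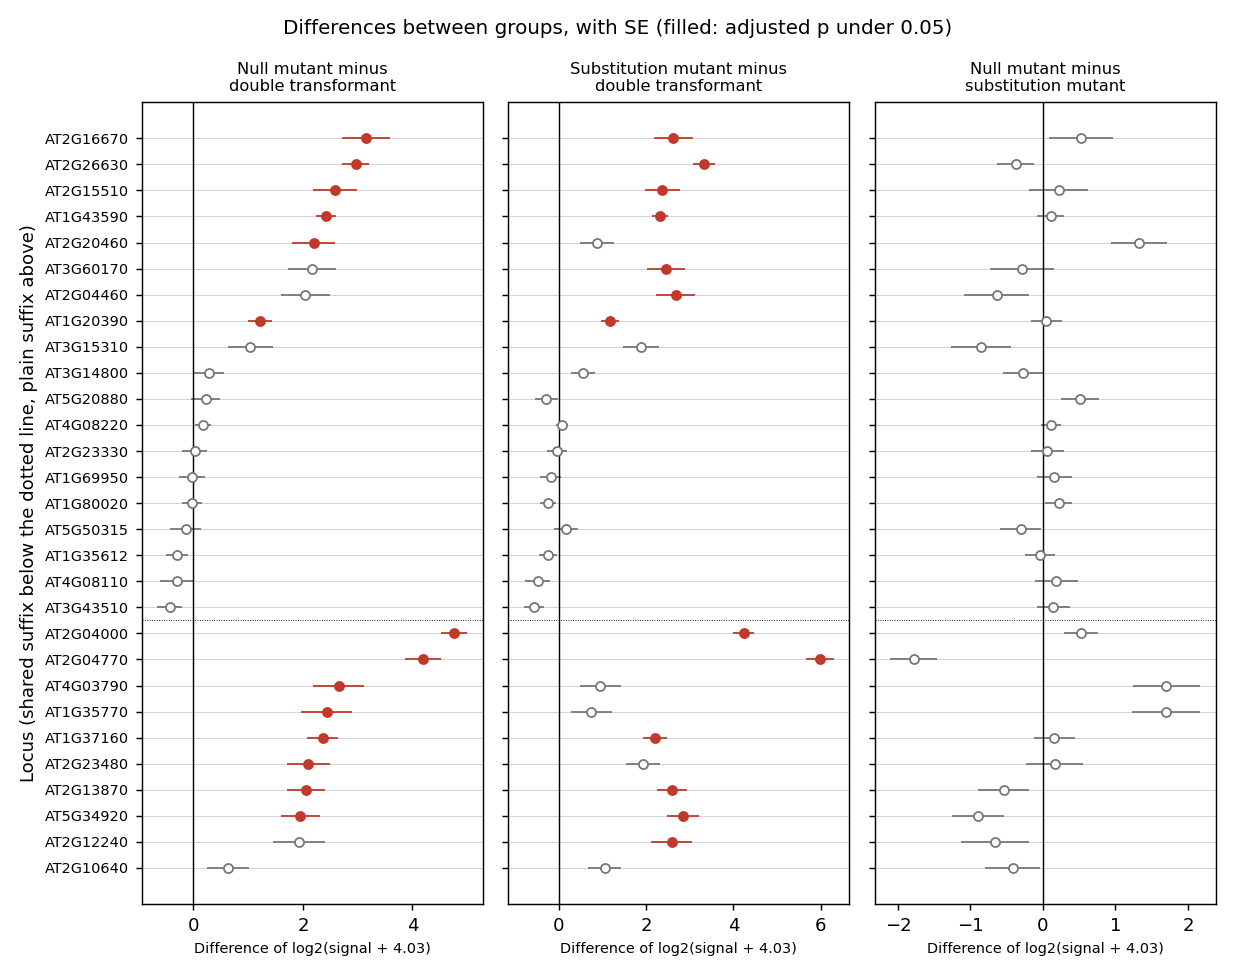
Log2 differences with SE for 29 loci in the 3 comparisons (horizontal axes, log2(signal + 4.03)); filled red points have a limma adjusted p under 0.05. No member is called between the mutants, where AT2G04770 (-1.78), AT4G03790 (1.70) and AT1G35770 (1.70) are farthest from 0.

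The direct comparison of the null mutant with the substitution mutant called 0 members in limma (0.0352% of all probe sets were called higher and 0.0044% lower, 0.0396% in either direction). At an unadjusted p under 0.05 there were 6 of 29, where 6.36% of all probe sets were counted. AT2G04770 came nearest, with a difference of -1.78 ± 0.32 (lower in the null mutant, limma adjusted p = 0.171). It was called with an offset of 4 times 4.03 (-1.70 ± 0.22, adjusted p = 0.031) and without double transformant 1 (-1.78 ± 0.22, adjusted p = 0.0298). Null and substitution arrays did not overlap for 6 members that were higher in the null mutant (6.06% of all probe sets) and 2 that were lower (5.6%). Of the 6 higher, 4 had passed the floor through the null mutant alone, and 1 of the 2 lower through the substitution mutant alone. Of the 6 with an unadjusted p under 0.05, 3 and 1 had passed in these ways. Such a pass sets the direction, so these counts cannot be read against the shares of all probe sets.

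Of the calls, 8 of 14 and 8 of 13 were lost when some single array was left out. In the null mutant, 6 of the 14 loci (AT1G43590, AT2G26630, AT2G16670, AT1G37160, AT2G04000 and AT2G04770) were called in each of 9 fits without a single array. AT2G15510 and AT4G03790 kept their call in 6, AT2G13870 in 5, AT2G20460 in 4, AT1G20390, AT1G35770 and AT5G34920 in 2, and AT2G23480 in 1. The number of members called was 8 without double transformant 1, 8 without double transformant 2, 13 without double transformant 3, 7 without null mutant 1, 12 without null mutant 2, 7 without null mutant 3, and 12, 10 and 9 without substitution mutant 1, 2 and 3. The calls that were lost had limma adjusted p between 0.0506 and 0.156, and the log2 differences of the 14 loci stayed between 1.097 and 4.91 in all of these fits.

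In the substitution mutant, 5 of the 13 loci (AT1G43590, AT2G26630, AT2G04000, AT2G04770 and AT5G34920) were called in each of the 9 fits. AT1G37160 kept its call in 8, AT2G13870 in 7, AT2G04460 and AT2G16670 in 5, and AT1G20390, AT2G15510, AT3G60170 and AT2G12240 in 4. The number of members called was 10, 7 and 12 without double transformant 1, 2 and 3, 13, 13 and 14 without null mutant 1, 2 and 3, and 6, 6 and 7 without substitution mutant 1, 2 and 3. Lost calls had limma adjusted p between 0.0501 and 0.196, while the log2 differences stayed between 1.05 and 6.19. When the 3 rpt arrays were left out, 5 members were called for the null mutant and 9 for the substitution mutant; with the rpt title as a block the counts were 13 and 11. Without double transformant 3 and null mutant 3 together they were 11 and 12.

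Double transformant 3 stood above the other reference arrays for many dim members. Among the 21 loci under 30 in the double transformant it was the highest of the 3 arrays for 14, with a median signal of 10.5 against 4.41 and 5.10 in double transformants 1 and 2. For AT4G03790, AT2G12240 and AT2G23480 it read 16.6, 16.04 and 15.9, where the other reference arrays read 5.95 or less. The same array was the highest for 49.5% of all 11007 probe sets under 30 in the double transformant, and for 57.8% of the 893 pseudogene-class probe sets under the floor.

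The place of the members in gene order was not used to choose them. For each locus the 20 nearest protein-coding genes and pseudogenes were taken, 10 on each side, in the TAIR10.1 annotation. Plain-suffix members had a median of 10% pseudogenes among these neighbours, against 60% for 714 plain-suffix loci of the same class under the floor and 5% for 12224 measured protein-coding loci. AT1G20390, AT1G80020, AT2G20460, AT2G23330, AT2G26630, AT3G14800 and AT5G50315 had 0%, that is, protein-coding neighbours only. At the other end, AT4G08110 had 95% and AT3G43510 60%. Shared-suffix members had a median of 60%, against 55% for 179 shared-suffix loci under the floor, with AT2G10640 (90%), AT4G03790 (85%) and AT1G37160 (80%) at the top. The 8 members at 30 or more in the double transformant had a median of 20%, and the 17 called in a mutant 25%. No test was made of these shares.

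**Figure D3:**
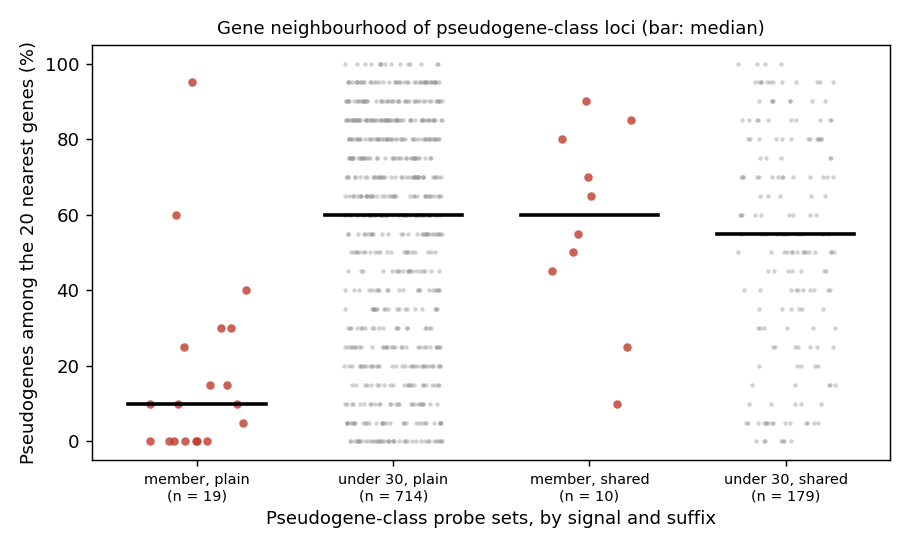
Share of pseudogenes among the 20 nearest genes (vertical axis, %) for pseudogene-class probe sets, split into members and loci under 30 and by suffix; each point is 1 locus and bars are medians. Plain-suffix members lie mostly low (median 10%), while the other 3 sets have medians of 55% to 60%.

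Of the members, 12 were on chromosome 2 (41.4%, against 277 of the 922 loci of the class), 7 on chromosome 1, 4 on chromosome 3, and 3 each on chromosomes 4 and 5. No 2 members were next to each other: the nearest pairs were AT2G23330 and AT2G23480 (17 steps in gene order), AT4G08110 and AT4G08220 (18), AT1G35612 and AT1G35770 (24) and AT2G04460 and AT2G04770 (36). In the first, the third and the fourth pair, 1 locus was called in the null mutant and the other was not. Both loci of the fourth pair were called in the substitution mutant.

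The nearest measured protein-coding gene on each side of a member gave 58 neighbours, 17 of them directly adjacent. One of the 58 was called, in both mutants: AT2G15560, 6 genes beyond AT2G15510, at 11.5 ± 1.73 in the double transformant, 530 ± 109 for the null mutant and 441 ± 27.9 for the substitution mutant (SD, n = 3; log2 differences of 5.09 and 4.85). This is 1 of 58 where 0.761% and 0.747% of all probe sets were called in either direction. None of the 17 adjacent genes was called by limma, with the smallest adjusted p at 0.177 and 0.209, and 3 and 2 had an unadjusted p under 0.05. Among all 58, this held for 8 and 11 in the null and substitution mutants, where 11.1% and 11.8% of all probe sets did. AT1G20380, adjacent to AT1G20390, was at 15.9 ± 3.22, 37.4 ± 12.5 and 32.8 ± 2.97, with differences of 1.02 ± 0.29 and 0.89 ± 0.29. AT2G16660, adjacent to AT2G16670, was at 269 ± 96.5, 130 ± 96.0 and 114 ± 39.3. Its differences of -1.45 ± 0.65 and -1.20 ± 0.65 had limma adjusted p of 0.430 and 0.509. Over the 17 adjacent genes the differences ran from -1.45 to 1.02 for the null mutant and from -1.20 to 0.89 for the substitution mutant. The adjacent neighbours of AT1G43590 and AT3G60170, AT1G43580 and AT3G60180, differed by 0.06 and 0.48 for the null mutant and -0.06 and 0.45 for the substitution mutant. The median over the neighbours was -0.05 in both mutants.

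**Figure D4:**
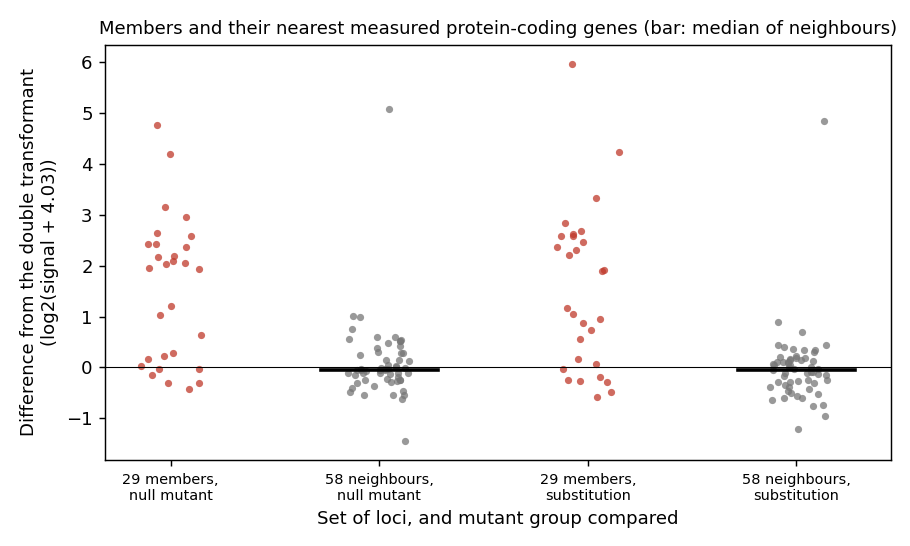
Log2 differences from the double transformant (vertical axis, log2(signal + 4.03)) of 29 members and of their 58 nearest measured protein-coding genes, in each mutant; each point is 1 locus and bars are the medians of the neighbours (-0.05 in both). The single neighbour far above 0 is AT2G15560 (5.09 and 4.85); the members were chosen by signal and carry no median.

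Of 48 genes of histone deacetylation, DNA methylation and transposon silencing, 4 had a single-gene probe set here, and 0 were called higher or lower by limma in any comparison. The histone deacetylase genes HDA7 and HDA15 differed by 0.05 and -0.10 for the null mutant and by -0.15 and -0.42 for the substitution mutant. DME, a DNA demethylase gene, differed by -0.17 and -0.0021, and LDL2, a histone demethylase gene, by -0.25 and -0.83 (adjusted p = 0.841 and 0.361). At an unadjusted p under 0.05 the list had 0, 1 and 0 members in the 3 comparisons, where 11.1%, 11.8% and 6.36% of all probe sets were counted. Of 25 organ markers, 8 were measured. The markers of green tissue and floral organs had no single-gene probe set here, so the whole-plant label was not checked with them. Of these 8, PAP85 was the only seed marker, and 0 were called by limma. An unadjusted p under 0.05 was found for 3 in each mutant comparison, where 11.1% and 11.8% of all probe sets had one. These 3 were the tapetum marker SHT (log2 differences of -1.22 and -1.49), the pollen marker ANX2 (-1.01 and -0.87) and the seed marker PAP85 (1.98 and 2.37). SHT was at 14.0 ± 9.87, 3.84 ± 5.21 and 1.89 ± 1.88 (SD, n = 3). ANX2 was at 6.44 ± 5.49, 0.606 ± 0.366 and 1.07 ± 0.227, levels of a few units. PAP85 was at 18.5 ± 15.1, 84.2 ± 57.9 and 95.9 ± 25.1, and null mutant 1 (31.5) lay below double transformant 1 (34.7). The other tapetum marker, A9, differed by -0.14 and -0.59, and the pollen markers ANX1 and LAT52-like by -0.11 and 0.15 for the null mutant and -0.08 and 0.47 for the substitution mutant. The root hair markers EXPA7 and EXPA18 differed by -0.30 and -0.01, and by -0.81 and 0.36. The median over the 8 was -0.12 and -0.34. Their summed signal ran from 25.9 to 73.9 over the double transformant arrays, 42.9 to 153 over the null mutant arrays and 96.3 to 137 over the substitution mutant arrays. Without PAP85 the sums of the other 7 were 21.2 to 52.0, 7.28 to 41.1 and 8.25 to 24.9. Their part in the members' differences was not tested.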

How the data were processed

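RNA from 9 ATH1 arrays was used as deposited. The intensity values are linear MAS5 signals that the authors had scaled before deposit (per the submitters' processing notes, which list MAS5 and GCOS; versions are not given in the sources used here). The mean after trimming 2% at each end was 100.01 on every array. Detection calls were not used here, so signals near background carry no call of presence. Groups came from the titles.

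Of 22810 probe sets, 64 controls were left out. The platform annotation gave 13513 probe sets 1 gene and 503 several, and 8730 are unnamed here; 13436 single-gene sets matched a locus of the RefSeq annotation of TAIR10.1, used only for names, biotype and gene order. Its pseudogene class held 923 probe sets; AT4G16870 was left out.

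Signals were analysed as log2(signal + 4.03), the offset being the 20th percentile of all deposited intensity values, which understates differences of dim probe sets. All 9 arrays entered one limma 3.58.1 model (R 4.3.3) with an intensity trend, and a call was a Benjamini-Hochberg adjusted p under 0.05 over 22746 probe sets. The fit was tested on simulated data. Members, lists and tests were chosen with earlier results of these data known. By the naming rule, the loci to be named were every member called in any comparison, the 8 with the highest signals of each suffix kind, those nearest the floor of 30, the 5 uncalled members with the widest spread, adjacent or repeated loci and the silencing genes nearest a call. The other members were added so that each is accounted for. Same-numbered arrays deviated together with correlations of -0.0409 to 0.154, so equal numbers were not taken to pair arrays. Alternatives tried were a smaller and a larger offset, leaving out dim probe sets, quantile normalization, median centring, no trend, fits of 6 arrays, blocks for replicate number and for the rpt titles, leaving out arrays, and other floors.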

Additional observations from a re-analysis of the deposited data

How the results depend on the processing

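Calls over all probe sets in the null mutant numbered 173, and 113 with no variance trend, 58 with only the 6 arrays compared, 61 without the 3 rpt arrays and 57 without double transformant 3 and null mutant 3 together, an alternative chosen after seeing the data. The members called fell from 14 to 5 both with 6 arrays and without the rpt arrays. In the substitution mutant 170 became 88 with no trend, where 8 members in place of 13 were called, 321 with the replicate block, 370 without the rpt arrays and 73 without the 2 arrays that stand apart. Between the mutants 9 became 5 with centred medians, 0 with no trend, 4 with 6 arrays, 5 with the rpt title as a block, 18 without the rpt arrays and 0 without the 2 arrays, and members called went from 0 to 1 with the offset of 4 times 4.03. Under the replicate block, 11 and 14 members were called in the null and substitution mutants and 176 probe sets in the null mutant, where AT1G20390, AT1G35770 and AT5G34920 lost their calls (adjusted p of 0.0529 to 0.0615). Leaving out single arrays gave 73 to 339 probe sets and 7 to 13 members in the null mutant, 46 to 212 and 6 to 14 in the substitution mutant, and 0 to 48 and 0 to 1 between the mutants. A floor of 60 would leave 7 members and a floor of 15 would give 88. In 1731 refits of single members 126 lost a call, 16 gained one and 29, of 13 differences with no call before or after, changed sign (adjusted p of 0.677 or more). The cause of these changes was not tested. Fits that leave some arrays out also rest on a smaller number of arrays. With no detection calls, levels of a few units cannot be told from background.

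These sign changes were as follows, as log2 differences. Leaving out single arrays gave, against the double transformant, -0.18 to 0.14 for AT1G69950, -0.11 to 0.055 for AT1G80020, -0.12 to 0.14 for AT2G23330 and -0.36 to 0.019 for AT5G50315 (null mutant) and -0.013 to 0.18 for AT4G08220 (substitution mutant). Between the mutants it gave -0.020 to 0.14 for AT1G20390, -0.24 to 0.20 for AT1G35612, -0.016 to 0.20 for AT1G43590, -0.086 to 0.18 for AT2G23330, -0.46 to 0.044 for AT3G60170, -0.11 to 0.42 for AT4G08110 and -0.0097 to 0.19 for AT4G08220. Without the rpt arrays, AT1G69950 was at 0.038 and AT5G50315 at 0.071 (null mutant), AT4G08220 at -0.0045 (substitution mutant), and AT1G20390 at -0.055 and AT2G04460 at 0.13 between the mutants. AT2G23330 in the null mutant was at -0.067 with quantile normalization and -0.064 with centred medians. Without double transformant 3 and null mutant 3 it was at -0.13 and AT1G80020 at 0.00041, and between the mutants AT2G23330 was at -0.086, AT3G60170 at 0.044 and AT4G08110 at -0.11.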

Other observations

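Below the floor of 30, 19 further loci of the pseudogene class were called in at least 1 mutant, 11 plain and 8 shared, chosen here after their values were seen. In the null mutant 12 of 893 were higher (1.34%, where 0.659% of all probe sets were called higher) and 0 lower. The substitution mutant had 10 higher (1.12%, where 0.62% were) and 1 lower (0.112%, where 0.127% were), and 4 were called in both. The 893 were set apart by a cut at 30 on the group means that are compared, so these shares are a description only. Double transformant means of the 19 called loci lay between 0.251 and 9.35 and their highest group means between 9.35 and 27.3. AT3G29650 went from 0.48 ± 0.208 to 27.0 ± 11.9 in the null mutant (SD, n = 3; log2 difference 2.71 ± 0.42, limma adjusted p = 0.0121) and 10.9 ± 6.07 in the substitution mutant. AT3G43530 went from 3.03 ± 4.15 to 22.7 ± 3.88 and 27.3 ± 5.74, with adjusted p of 0.0409 and 0.0279. Over all 893 loci under the floor the median log2 difference was 0.10 (null mutant) and 0.0042 (substitution mutant), against 0.019 and -0.0031 over all probe sets. Their median signal was 1.33, 0.894 and 2.35 on the double transformant arrays and 1.93, 1.31 and 2.73 on the null mutant arrays. The medians of all probe sets on these arrays were 31.8, 31.9 and 34.5, and 35.0, 33.2 and 36.8. Such dim signals cannot be told from background, and the part of array background in this difference was not tested.

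The annotation holds a separate class of transcribed pseudogenes, which the choice of members did not include. Of its 66 probe sets, 2 reached a mean of 30. AT3G07280 was at 60.7 ± 11.5 in the double transformant, 63.1 ± 10.1 for the null mutant and 46.3 ± 2.46 for the substitution mutant (SD, n = 3), and AT5G04880 at 30.6 ± 3.98, 40.8 ± 6.01 and 35.3 ± 0.399. Neither was called in either mutant by limma (adjusted p between 0.528 and 0.949).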
